A study of Mus musculus with 27 samples.

Results

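The unfolded protein and heat shock genes are 37 genes that encode protein-folding helpers and the sensors and transcription factors that control them. They were taken by symbol from the 46078 gene rows of RNA-Seq count tables, in which each symbol matched 1 Ensembl gene. They fall into 16 chaperones and folding enzymes of the endoplasmic reticulum (ER), 6 sensors and transcription factors of the unfolded protein response (UPR), 3 targets of the integrated stress response, 9 cytosolic heat shock proteins and cochaperones, 2 mitochondrial chaperonins and 1 heat shock factor. Epithelium was scraped from the colon of 27 mice, all C57BL/6 males, with 3 mice in each of 9 groups. The vehicle group received sesame oil and the other groups received TCDD, the most potent dioxin, in sesame oil at 30, 10, 3, 1, 0.3, 0.1, 0.03 or 0.01 μg/kg. TCDD binds the aryl hydrocarbon receptor (AhR), a transcription factor that is switched on by its ligands. Each mouse had 7 oral doses, 1 every 4 days over 28 days, from 28 to 56 days of age. Tissue was collected at 1 time of day only, early in the light phase, per the study's methods. The comparison addresses whether repeated TCDD treatment changed the expression of these genes in the colon, and at which doses.

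When unfolded proteins build up in the ER lumen, the sensors IRE1 (Ern1, and Ern2 in mucus-secreting epithelium), ATF6 and PERK signal to the nucleus. The transcription factors XBP1, ATF6 and ATF4 then raise ER chaperones, ER-associated degradation factors and amino acid enzymes. In the cytosol, heat shock factor 1 (Hsf1) binds heat shock elements and raises chaperones of the HSP70, HSP90, HSP40 and small heat shock families. Goblet cells of the colon secrete large amounts of mucin and rely on a large folding capacity of the ER.

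The libraries held 9305441 to 14371035 reads on genes per mouse (median 11651026). Levels are given in CPM, reads on a gene relative to all reads on the genes tested, per 1000000, scaled by TMM factors. A scraping is a mixture of cells, so that fewer cells of a type and less RNA per cell cannot be told apart. Epithelial markers were present in every mouse, with Epcam at 864 to 1140 CPM and the goblet cell mucin Muc2 at 25800 to 47100 CPM. The AhR target Cyp1a1 averaged 0.0655 CPM in vehicle-treated mice and 2200 CPM at 30 μg/kg. The labels name each library as a separate mouse, and p-values measure the spread between these mice.

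Promoter sequences are shown first, since ER chaperone genes are known to share a sequence element bound by ATF6 and XBP1. RefSeq promoters on GRCm38.p6, each 250 bases before to 50 bases after a start site, were found for 30 of the 37 genes. No entry matched Hyou1, Manf, Ern2, Atf6, Hspa8, Hsp90aa1 or Hsf1. The ER stress response element (ERSE), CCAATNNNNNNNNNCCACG on either strand, occurred in 0.119% of 32851 promoters and in those of 7 of the 14 ER chaperone genes with an entry, namely Hspa5, Hsp90b1, Calr, Canx, Pdia6, Dnajc3 and Creld2. Herpud1 and Dnajb11 held the related ERSE-II, ATTGGNCCACG, which occurred in 0.0365% of all promoters. The heat shock element searched, GAANNTTCNNGAA on either strand, occurred in 0.603% of promoters and in those of Hsph1, Hspd1 and Hspe1 among the members. A match describes these letters only, and the elements of Hspd1 and Hspe1 lie in the same stretch, which both promoter windows cover. The 250 bases before the start site of Herpud1 (chr8:94386179-94386428, plus strand), Hspa5 (chr2:34771840-34772089, plus strand), Pdia6 (chr12:17266339-17266588, plus strand) and Hspe1 (chr1:55087898-55088147, plus strand) are printed with the ERSE, ERSE-II or heat shock element in capitals. Herpud1 and Hspa5 contrast the member that changed most among well-measured genes with the classical ERSE gene, Pdia6 had a falling trend, and Hspe1 carries 2 overlapping heat shock elements.
Herpud1: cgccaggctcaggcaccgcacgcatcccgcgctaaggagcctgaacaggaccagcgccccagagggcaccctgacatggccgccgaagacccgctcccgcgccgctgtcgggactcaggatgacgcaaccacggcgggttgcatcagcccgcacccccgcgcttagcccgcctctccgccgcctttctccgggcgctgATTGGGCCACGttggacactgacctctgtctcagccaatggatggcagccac
Hspa5: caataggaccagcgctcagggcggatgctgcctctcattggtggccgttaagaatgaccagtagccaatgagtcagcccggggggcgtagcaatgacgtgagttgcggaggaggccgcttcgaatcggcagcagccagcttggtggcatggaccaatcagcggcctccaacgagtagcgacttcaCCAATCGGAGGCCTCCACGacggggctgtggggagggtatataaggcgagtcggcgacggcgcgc
Pdia6: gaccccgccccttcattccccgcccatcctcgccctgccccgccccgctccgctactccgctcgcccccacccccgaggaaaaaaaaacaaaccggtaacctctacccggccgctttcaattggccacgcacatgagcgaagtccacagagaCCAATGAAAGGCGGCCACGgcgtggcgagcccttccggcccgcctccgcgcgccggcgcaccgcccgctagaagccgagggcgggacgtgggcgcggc
Hspe1: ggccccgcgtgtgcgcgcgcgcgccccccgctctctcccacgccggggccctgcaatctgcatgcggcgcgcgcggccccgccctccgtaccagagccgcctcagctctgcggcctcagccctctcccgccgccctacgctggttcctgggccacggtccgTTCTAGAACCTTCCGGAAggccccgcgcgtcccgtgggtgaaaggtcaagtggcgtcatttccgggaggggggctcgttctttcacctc

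The 5 most abundant members were ER chaperones, followed by Ern2 and Xbp1, and other ER chaperones ranked as low as 25 of 37. Levels were compared between genes per kb of exon, as means over all 27 mice. P4hb, a protein disulfide isomerase, led with 175.9 CPM per kb and exceeded 99.2% of the genes tested. Calr (157.8), Pdia3 (114.5) and Canx (90.2), which act together on glycoproteins in the calreticulin and calnexin cycle, followed in CPM per kb. The ranges over mice of P4hb and Calr overlapped, from 139.2 to 218.2 and from 126.2 to 208.2 CPM per kb. Ern2 was at 68.5 CPM per kb against 10.6 for its relative Ern1. Among the 9 cytosolic members, constitutive Hspa8 was the highest at 41.3 CPM per kb, whereas stress-inducible Hspa1b and Hspa1a were at 2.17 and 0.984. Hspb1, a small heat shock protein, was at 0.60 CPM per kb, and Trib3, a pseudokinase induced by ATF4 and CHOP, was lowest at 0.174. Trib3 had 2 to 8 reads per mouse and did not pass the filter on low counts, which left 36 members to test.

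**Figure D1:**
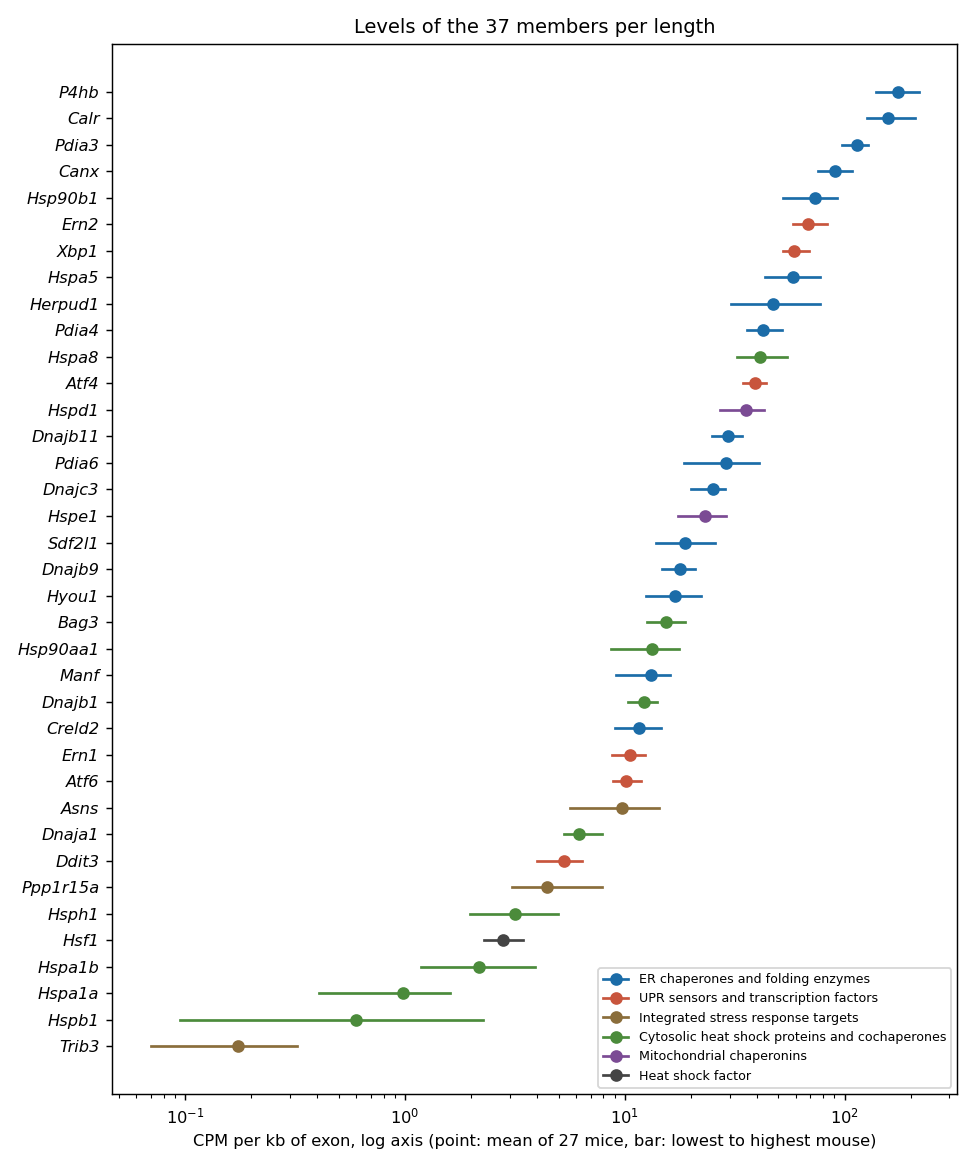
Mean level of each of the 37 genes over 27 mice in CPM per kb of exon (log axis), with a bar from the lowest to the highest mouse and colour by role. ER folding enzymes stand at the top, P4hb at 175.9 CPM per kb, and Trib3 at the bottom at 0.174.

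At 30 μg/kg, 3 of the 36 members tested were higher than in vehicle-treated mice and 0 were lower, by edgeR's quasi-likelihood test with a threshold of 0.05 on the adjusted p and of 1.5 on the fold. They were Herpud1, Hspa8 and Hspb1. The same threshold was passed by 6.16% of all 16496 genes tested, 2.95% higher and 3.21% lower. With the adjusted p alone the count was 4 of 36, through a lower level of Sdf2l1, where 11% of all genes passed. The 3 mice did not overlap the vehicle-treated mice for 11 members that were higher and 4 that were lower, against 14.5% and 15.2% of all genes. For 25 of the 33 members not called, the 95% interval of the change lay within 1.5-fold in either direction, and the other 8 were Hspa5, Sdf2l1, Asns, Ppp1r15a, Hspa1a, Hspa1b, Hsph1 and Hsp90aa1. Every comparison with vehicle shares the same 3 control mice.

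**Figure D2:**
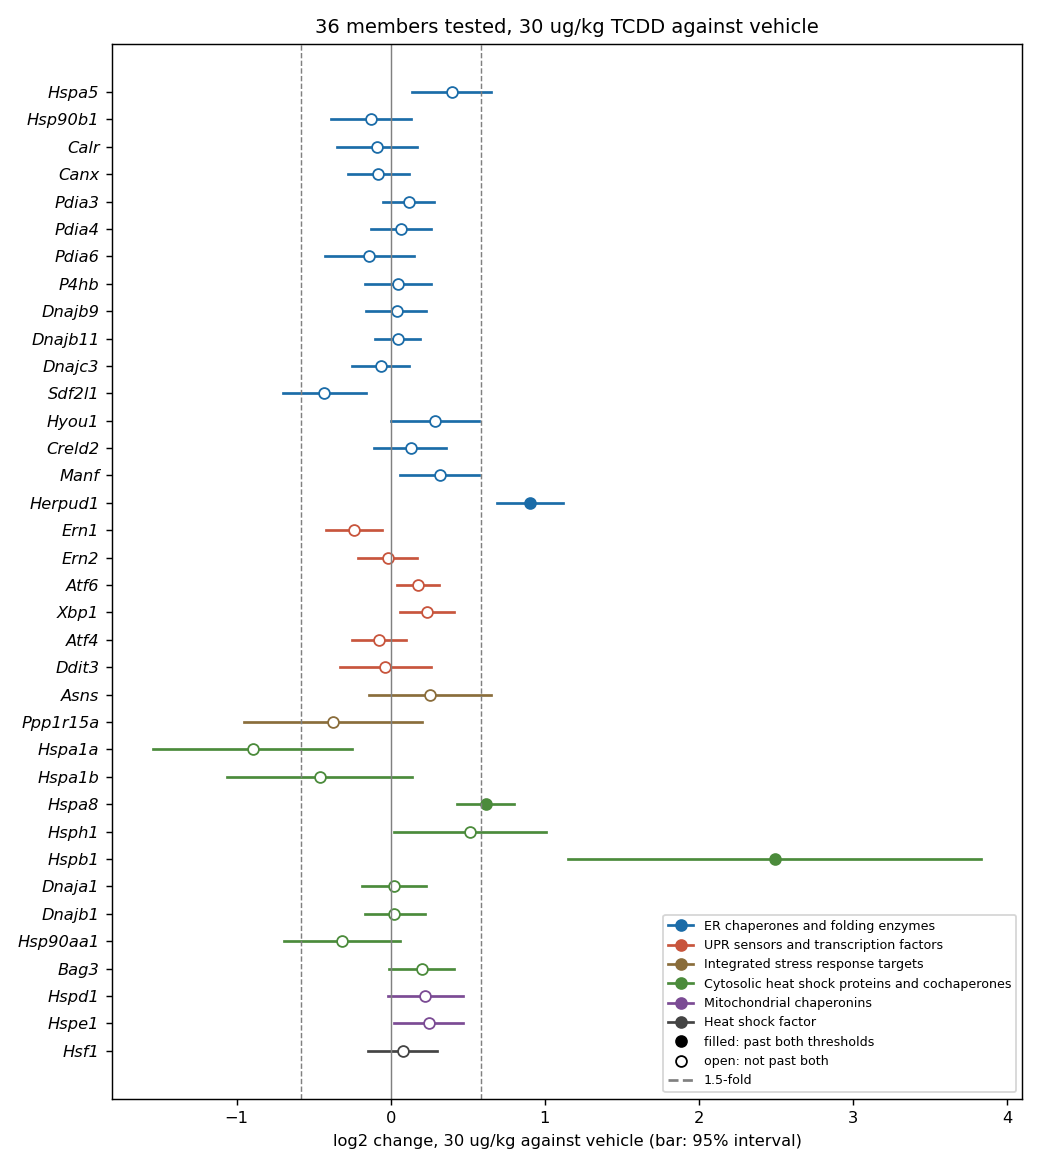
Log2 change of the 36 members tested at 30 μg/kg against vehicle (3 mice each), with 95% intervals, colour by role and dashed lines at 1.5-fold. Filled points mark Herpud1, Hspa8 and Hspb1, which passed both thresholds, and most other intervals lie between the dashed lines.

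Herpud1, which encodes a membrane protein of ER-associated degradation, gave the clearest change among the ER genes. Its level was 95.7, 78.6 and 100.3 CPM in the vehicle-treated mice and 156.8, 177.7 and 180.6 CPM at 30 μg/kg. All 3 mice at 30 μg/kg stood above every other mouse in the series. The rise was 1.87-fold (log2 change 0.91, SE 0.11, edgeR adjusted p = 1.87e-05), from a mean of 91.6 ± 11.4 to 171.7 ± 13 CPM (SD, n = 3). Leaving out each of the 6 mice in turn gave log2 changes of 0.81 to 0.98, with edgeR adjusted p from 3.11e-05 to 0.000322. The call was lost when a score of clock genes, described further on, was a covariate (log2 change 0.46, edgeR adjusted p = 0.153). No 50-base stretch of its transcripts occurs in another gene. An antisense gene that overlaps it, Gm15890, had 1 to 12 reads per mouse, whereas Herpud1 had 693 to 2180.

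Of the other 15 ER chaperones 0 passed both thresholds at 30 μg/kg. Over all 16 the median log2 change was 0.05, with 10 higher and 6 lower, against a median of 0.00 over all genes tested. Hspa5 (BiP), the central HSP70 of the ER, was at 220.7, 203.4 and 244.4 CPM in vehicle-treated mice and at 253.4, 325.9 and 299.8 CPM at 30 μg/kg. The groups did not overlap, and the log2 change of 0.39 (SE 0.13) lay at the threshold with an edgeR adjusted p of 0.05003. Hyou1, the nucleotide exchange partner of BiP, had a log2 change of 0.28 (edgeR adjusted p = 0.203), and Manf, a secreted ER stress factor, one of 0.32 (edgeR adjusted p = 0.116). In both genes every mouse at 30 μg/kg was above every vehicle-treated mouse, but neither difference passed the test. Hspa5, Hyou1 and Manf were named after their values were seen. Plasma cells, which also hold much ER, had summed levels of 8 markers of 357.2 to 426.1 CPM with vehicle and of 421.1 to 659.3 CPM at 30 μg/kg. Of the 7 markers tested 6 were above vehicle and 0 were called, and their part in the levels of the ER genes was not tested.

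Sdf2l1, a cofactor of BiP, was the ER chaperone with the largest difference downwards. It was at 23.6, 18.6 and 24.7 CPM in vehicle-treated mice and at 16.1, 17.8 and 15.7 CPM at 30 μg/kg. The groups did not overlap, and the level fell by 0.43 on the log2 scale (SE 0.14, edgeR adjusted p = 0.0455), which is less than 1.5-fold. Without each mouse in turn its edgeR adjusted p ran from 0.0259 to 0.173. With the clock score as a covariate the log2 change was -0.02 (edgeR adjusted p = 0.977), and with a term for index set it was -0.57 (edgeR adjusted p = 0.198). P4hb, the most abundant member, was at 471.1, 520.9 and 523.3 CPM with vehicle and at 480.2, 581.1 and 504.5 CPM at 30 μg/kg, a log2 change of 0.05 (SE 0.11). Pdia6, another disulfide isomerase, was at 83.8, 102.1 and 127.0 CPM with vehicle and at 99.2, 91.2 and 93.9 CPM at 30 μg/kg. These groups overlapped for both disulfide isomerases. The remaining 9 (Hsp90b1, Calr, Canx, Pdia3, Pdia4, Dnajb9, Dnajb11, Dnajc3 and Creld2) lay between -0.13 and 0.13 on the log2 scale, each with an interval within 1.5-fold.

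**Figure D3:**
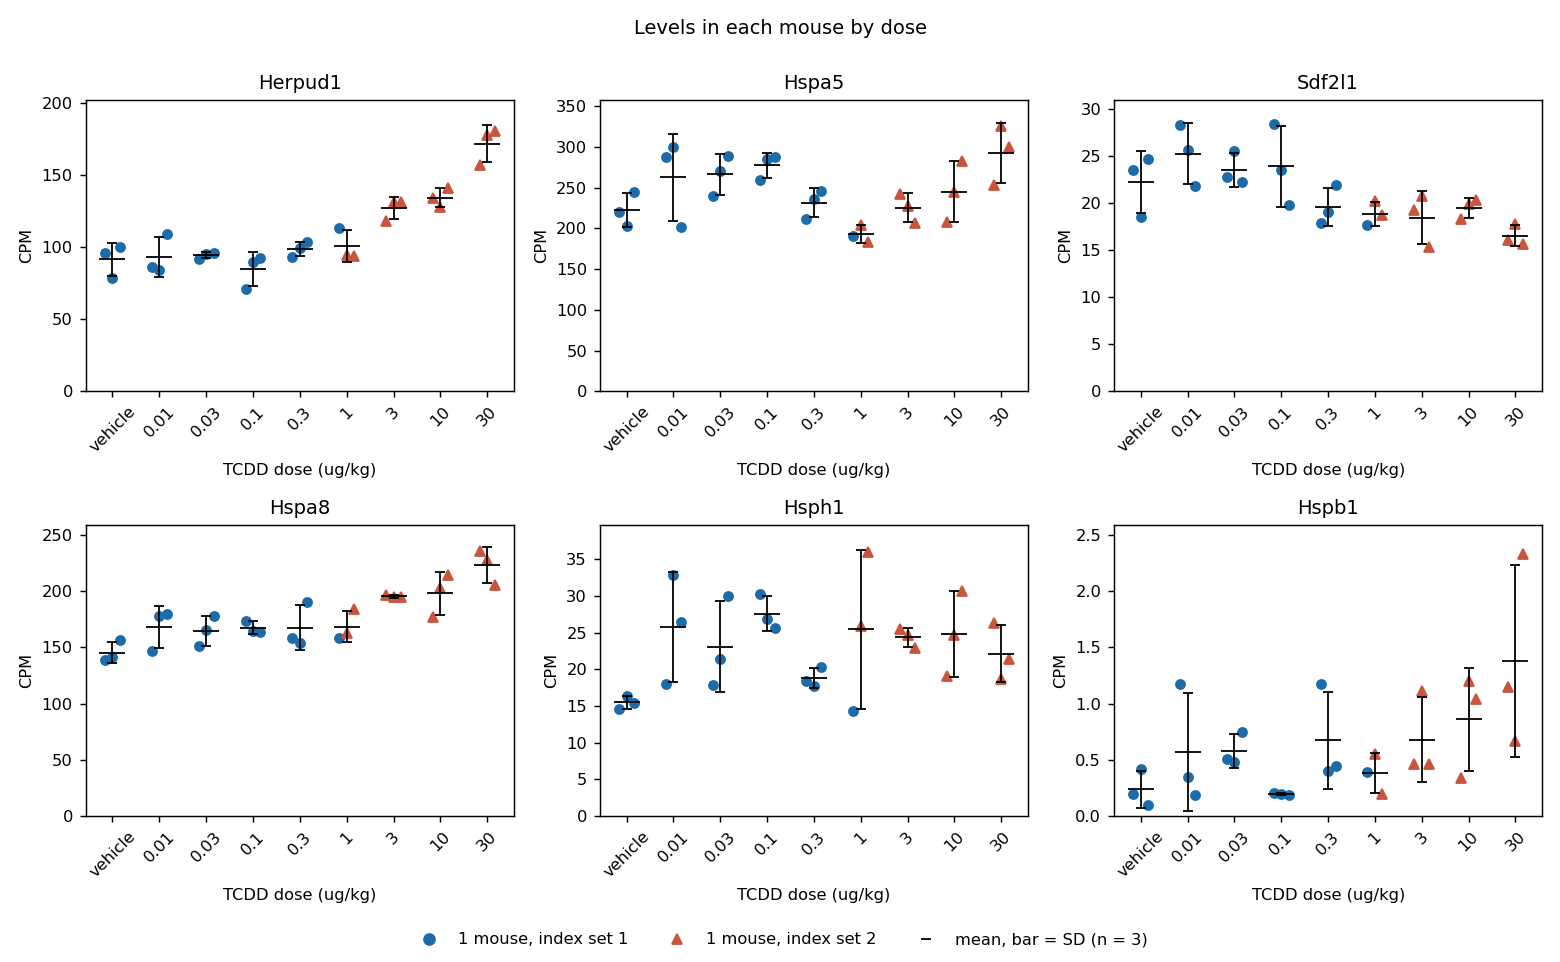
CPM of 6 members in each mouse by dose (linear axes from 0), with the mean and SD of 3 mice. Symbols mark the index set of the library. Herpud1 and Hspa8 are highest at 30 μg/kg, Sdf2l1 lowest, and Hspb1 stays at or below 2.33 CPM.

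The UPR sensors and transcription factors gave no call. The 6 had a median log2 change of -0.03 at 30 μg/kg, 0 passed the test and all 6 intervals lay within 1.5-fold. Ern2 was at 197.3, 202.5 and 213.1 CPM with vehicle and at 195.3, 182.3 and 227.6 CPM at 30 μg/kg. These ranges overlapped, with a log2 change of -0.02 (SE 0.10). Ern1 was at 94.3, 95.4 and 93.5 CPM with vehicle and at 81.1, 81.8 and 76.8 CPM at 30 μg/kg. Its groups did not overlap, and the log2 change was -0.24 (SE 0.09, edgeR adjusted p = 0.0958). Atf6 was at 95.4, 91.5 and 90.2 CPM with vehicle and at 104.0, 109.1 and 99.9 CPM at 30 μg/kg. It did not overlap vehicle either, with a log2 change of 0.18 (SE 0.07, edgeR adjusted p = 0.108). Xbp1 had a log2 change of 0.23 (edgeR adjusted p = 0.0906), again without overlap. Gene counts do not separate the spliced form of Xbp1, made when IRE1 is active, from the unspliced form. Atf4 and Ddit3 (CHOP), which act downstream of PERK, had log2 changes of -0.08 and -0.04.

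The integrated stress response targets did not pass the test. Asns, asparagine synthetase, was at 22.5, 21.7 and 34.4 CPM with vehicle and at 24.0, 38.1 and 32.0 CPM at 30 μg/kg. The groups overlapped, and the log2 change of 0.26 had an SE of 0.20. Ppp1r15a (GADD34), which restores translation, had a log2 change of -0.38 with an SE of 0.29. One vehicle-treated mouse at 23.0 CPM stood above the other two at 11.9 and 12.4 CPM.

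Among the cytosolic heat shock genes, 2 of 9 rose at 30 μg/kg. Hspa8, the constitutive HSP70 of the cytosol, was at 138.9, 141.1 and 156.5 CPM in vehicle-treated mice and at 236.2, 227.7 and 205.2 CPM at 30 μg/kg. The groups did not overlap, and the rise was 1.53-fold (log2 change 0.62, SE 0.10, edgeR adjusted p = 0.000264). The fold is close to the threshold of 1.5, and without replicate 1 at 30 μg/kg it fell under it (log2 change 0.57, edgeR adjusted p = 0.00178). The call was also lost with the clock score as a covariate or with a term for the index set of the libraries, both given further on. Of 50-base stretches of its transcripts, 39.4% also occur in other genes, mainly the pseudogene Gm15459, and reads with more than 1 alignment were not counted for a gene.

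Hspb1 (HSP25) was present at a few reads per mouse, and its large fold rests on them. It had 2, 4 and 1 reads in the vehicle-treated mice and 16, 8 and 27 reads at 30 μg/kg, or 0.197, 0.422 and 0.0982 CPM against 1.15, 0.669 and 2.33 CPM. The groups did not overlap, and the log2 change was 2.49 (SE 0.68, edgeR adjusted p = 0.0218). The depth-scaled ratio of the summed reads was 5.80 with an exact 95% interval of 2.62 to 15.2, which covers counting error only, since the reads carried no molecular identifiers. The call was lost without vehicle replicate 1 (edgeR adjusted p = 0.0838), without vehicle replicate 3 (0.0954) and without replicate 3 at 30 μg/kg (0.117). Over the 6 fits that left out 1 mouse the log2 change ran from 1.92, without replicate 3 at 30 μg/kg, to 3.13, without vehicle replicate 2. Replicate 3 at 30 μg/kg also had the highest summed level of 6 smooth muscle markers in the series, 639.2 CPM, and of 6 adipocyte markers, 162.6 CPM. All 6 markers of both lists were above vehicle at 30 μg/kg, with 0 and 2 of them called. The smooth muscle sum ran from 46.0 to 87.6 CPM with vehicle and from 96.4 to 639.2 CPM at 30 μg/kg, and the adipocyte sum from 2.07 to 17.6 CPM and from 16.0 to 162.6 CPM. Their part in the Hspb1 result was not tested. About 50.1% of 50-base stretches of Hspb1 also occur in other genes, mostly the pseudogene Hsp25-ps1, which had 0 to 2 reads per mouse.

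The stress-inducible HSP70 genes gave no call. Like Hsph1, they were named after their values were seen. Hspa1a was at 4.62, 3.58 and 2.85 CPM with vehicle and at 2.66, 2.01 and 1.21 CPM at 30 μg/kg. These ranges did not overlap, and the log2 change of -0.90 (SE 0.33) had an edgeR adjusted p of 0.0808. Hspa1b was at 10.0, 6.22 and 3.53 CPM with vehicle and at 4.96, 4.77 and 4.66 CPM at 30 μg/kg, a log2 change of -0.46 (SE 0.31) with overlapping groups. The values of both are uncertain, because 66.3% and 62.3% of their 50-base stretches occur in other genes, most of them in each other. Hsph1 (HSP110), a nucleotide exchange factor of HSP70, was at 14.7, 16.4 and 15.4 CPM with vehicle and at 26.4, 18.7 and 21.4 CPM at 30 μg/kg. The groups did not overlap, but the log2 change of 0.52 (SE 0.25) did not pass the test (edgeR adjusted p = 0.189). Hsp90aa1, the inducible HSP90, had a log2 change of -0.32 (edgeR adjusted p = 0.303), and 47.5% of its stretches are shared with other genes. The cochaperones Dnaja1, Dnajb1 and Bag3 had log2 changes of 0.02, 0.02 and 0.20, each with an interval within 1.5-fold.

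The mitochondrial chaperonins and Hsf1 stayed within 1.5-fold. Hspd1 (HSP60) was at 73.8, 85.9 and 88.7 CPM with vehicle and at 100.8, 96.7 and 92.7 CPM at 30 μg/kg. The groups did not overlap, and the log2 change was 0.22 (SE 0.13, edgeR adjusted p = 0.259). Hspe1 (HSP10), which lies head to head with Hspd1, had a log2 change of 0.25 (edgeR adjusted p = 0.162), also without overlap. Hsf1 was at 21.1, 16.2 and 18.7 CPM with vehicle and at 18.2, 19.3 and 21.6 CPM at 30 μg/kg, a log2 change of 0.08 with overlapping groups.

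At lower doses 0 members passed both thresholds by edgeR, and 0 by DESeq2 or limma. The share of all genes that passed both thresholds by edgeR was 1.78% for 10 μg/kg, 0.697% for 3 μg/kg, 0.200% for 1 μg/kg and 0% for each lower dose. At an unadjusted p under 0.05 edgeR counted 7 members for 10 μg/kg, against 17.8% of all genes, 6 for 3 μg/kg, against 16%, and 2 for 1 μg/kg, against 9.80%. For 0.3 μg/kg it counted 1, against 5.19% of all genes, and for 0.03 μg/kg 2, against 4.64%. With the adjusted p alone, Herpud1 and Hspa8 were higher at 10 μg/kg, where 3.23% of all genes passed, and at 3 μg/kg, where 1.40% did. Herpud1 was at 133.8, 127.7 and 140.9 CPM at 10 μg/kg, a log2 change of 0.55 (edgeR adjusted p = 0.00670). At 3 μg/kg Herpud1 was at 118.1, 131.0 and 131.5 CPM, a log2 change of 0.47 (edgeR adjusted p = 0.0323). Neither group overlapped the vehicle-treated mice. At 1 μg/kg Herpud1 was at 113.3, 94.7 and 93.8 CPM and overlapped them. Hspa8 had log2 changes of 0.45 at 10 μg/kg (edgeR adjusted p = 0.0114) and 0.43 at 3 μg/kg (edgeR adjusted p = 0.0263). Its levels ran from 177.1 to 214.8 CPM at 10 μg/kg and from 194.6 to 196.8 CPM at 3 μg/kg, both above the highest vehicle-treated mouse at 156.5 CPM.

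Most ER chaperones were above vehicle at the lowest doses, without passing the adjusted test. At 0.1 μg/kg, 15 of 16 were higher than with vehicle, with a median log2 change of 0.20. At 0.01 μg/kg 14 of 16 were higher, also with a median of 0.20. This was not particular to the ER chaperones. At 0.01 μg/kg 45 of 56 further UPR genes and 36 of 44 further heat shock genes, listed further on, were above vehicle (medians 0.11 and 0.09). At 0.1 μg/kg 42 of 56 and 36 of 44 were (medians 0.08 and 0.18). The median over all genes was 0.007 at 0.01 μg/kg and 0.002 at 0.1 μg/kg. At 0.01 μg/kg all 6 adipocyte markers (median log2 change 2.60) and all 6 smooth muscle markers (1.22) were above vehicle and all 5 posterior Hox genes tested were below it (-0.45). At 0.1 μg/kg 5 of 6 adipocyte markers (0.13) and all 6 smooth muscle markers (0.61) were above vehicle and 4 of 5 Hox genes below it (-0.22). None of these markers was called, and their part in the ER chaperone levels was not tested. At 1 μg/kg 14 of 16 ER chaperones were lower, with a median of -0.14. At 0.1 μg/kg, the 3 mice did not overlap vehicle for 12 of 36 members that were higher, against 6.47% of all genes, and 11 members had an unadjusted p under 0.05, against 6.37%. At 0.01 μg/kg, 8 members had an unadjusted p under 0.05, all of them higher, against 6.35% of all genes. Hyou1 at 0.1 μg/kg was at 141.0, 161.0 and 135.3 CPM against 104.5, 99.9 and 119.0 CPM with vehicle, a log2 change of 0.43 with an edgeR adjusted p of 0.706. Hsph1 had its largest difference at the same dose, a log2 change of 0.83 (SE 0.25, edgeR adjusted p = 0.620). Since the 3 vehicle-treated mice enter each of these values and these members vary together between mice, the counts of members are not counts of independent differences.

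**Figure D4:**
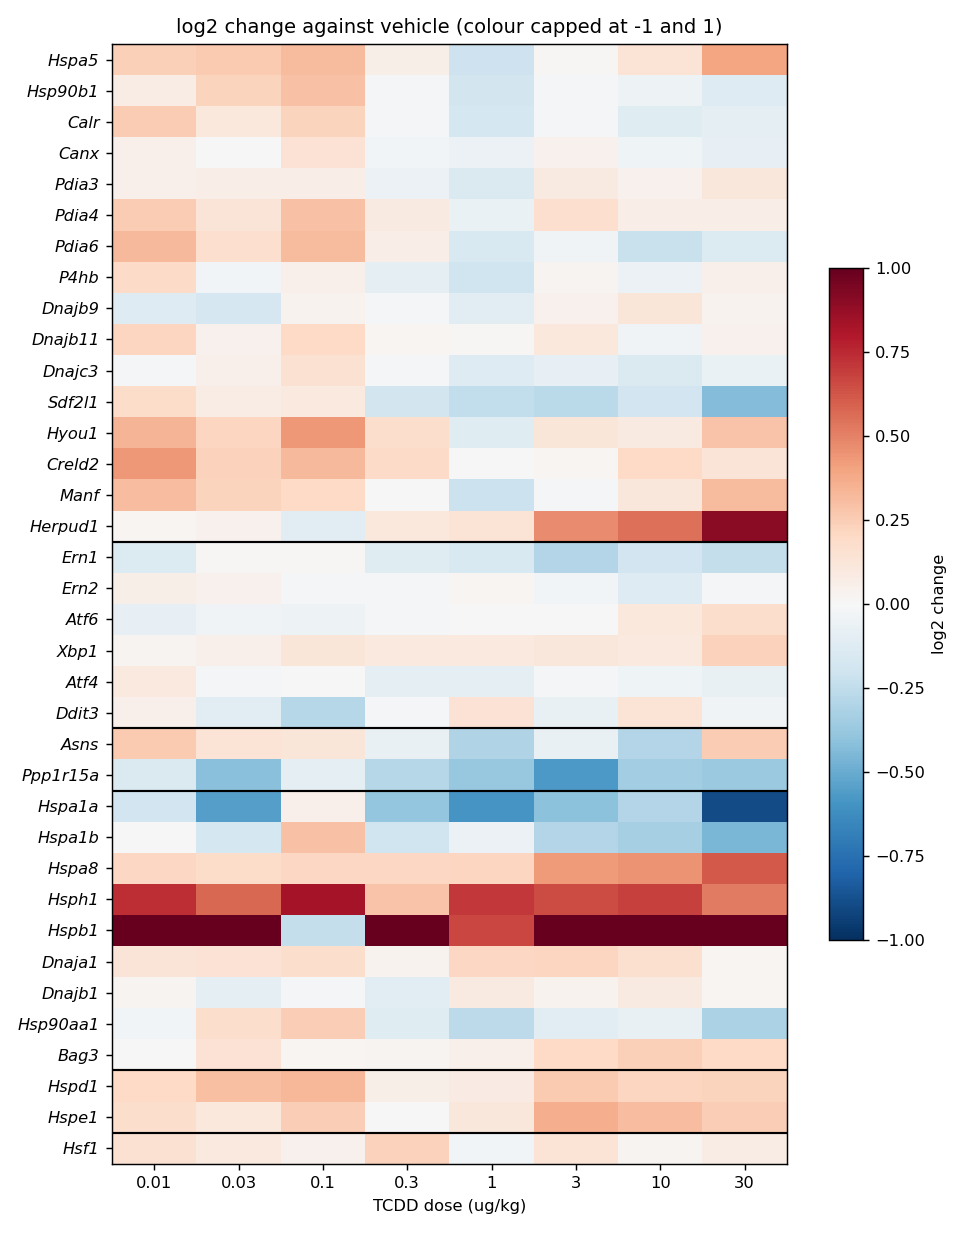
Log2 change of each tested member against vehicle at each dose (rows are genes, lines part the roles, and colour is capped at -1 and 1). Herpud1 and Hspa8 darken from 3 to 30 μg/kg, and most ER chaperones are above vehicle at 0.01 to 0.1 μg/kg and below it at 1 μg/kg.

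Over all 27 mice, 10 of the 36 members had a slope over dose rank (vehicle as 0, the highest dose as 8) with an edgeR adjusted p under 0.05. The 6 rising members (Herpud1, Hspa8, Hspb1, Atf6, Xbp1 and Bag3) compare with 11.8% of all genes that rose, and the 4 falling members (Sdf2l1, Ern1, Pdia6 and Calr) with 11.6% that fell. The slope per dose step was 0.11 log2 units for Herpud1 (SE 0.01, edgeR adjusted p = 3.73e-06) and 0.06 for Hspa8 (SE 0.01, edgeR adjusted p = 2.20e-05). Sdf2l1 fell by 0.07 per step (edgeR adjusted p = 0.000576), Pdia6 by 0.05 (0.0134), Calr by 0.04 (0.0422) and Ern1 by 0.03 (0.00876). Atf6 rose by 0.02 per step (edgeR adjusted p = 0.00807), Xbp1 by 0.02 (0.0407) and Bag3, the cochaperone of selective autophagy, by 0.03 (0.0375). Bag3 was at 38.6, 32.4 and 39.8 CPM with vehicle and at 48.4, 39.3 and 39.5 CPM at 30 μg/kg, which overlap. Without 1 mouse, the count of members ran from 7 to 11.

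The libraries carried 16 index barcodes, 11 of which were used again, and the first and second uses follow dose. Whether these 2 index sets were prepared or sequenced apart is not given in the sources used here. Dose and index set cannot be told apart across them, except for 1 mouse against 2 at 1 μg/kg. Index set 1 holds 16 mice, all of those below 1 μg/kg and replicate 1 of that dose, and index set 2 holds the 11 others. With a term for index set the slope was called for 0 members and for 0.0667% of all genes, and within the 16 mice of set 1 for 0 members and 0.00589% of all genes. From vehicle to 3 μg/kg (21 mice) it was called for 0 members, against 2.57% of all genes. Within the 11 mice of set 2 it was called for Herpud1 and Hspa5, where 3.06% of all genes were called. There the slope was 0.26 per step for Herpud1 (SE 0.03, edgeR adjusted p = 0.000680) and 0.19 for Hspa5 (SE 0.04, edgeR adjusted p = 0.0207). For 30 μg/kg against vehicle each group had its own mean, and only the 1 μg/kg group has mice in both sets. The term for index set therefore rested on replicate 1 of that dose against replicates 2 and 3. It left Herpud1 called (log2 change 1.17, edgeR adjusted p = 0.00239). The calls of Hspa8 (0.49, edgeR adjusted p = 0.104) and Hspb1 (2.59, edgeR adjusted p = 0.298) ended. Hspa1b was called lower in that fit, with a log2 change of -1.72 (edgeR adjusted p = 0.0476), against -0.46 without the term. At 1 μg/kg its level was 3.33 CPM in replicate 1 and 6.88 and 9.04 CPM in replicates 2 and 3.

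Comparisons within set 2 need no vehicle-treated mice. For 10 and 30 against 1 and 3 μg/kg, 0 members passed both thresholds by edgeR, DESeq2 or limma, where both thresholds were passed by 0.983% of all 16169 genes tested there. At an unadjusted p under 0.05 there were 7 members, against 15.6% of all genes. With the adjusted p alone Herpud1 was higher, by 0.48 on the log2 scale (SE 0.06, edgeR adjusted p = 0.00374), where 1.28% of all genes passed. Leaving out each of the 11 mice gave log2 changes of 0.45 to 0.51, with adjusted p from 0.00238 to 0.0288. Hspa5 was higher by 0.37 (SE 0.09, edgeR adjusted p = 0.0866) and Manf by 0.33 (edgeR adjusted p = 0.171). Hspa8 differed by 0.20 (edgeR adjusted p = 0.190). In the same comparison all 6 smooth muscle markers were higher, 5 of them called, with a median log2 change of 2.28, and their part in these differences was not tested. For 30 against 3 μg/kg, 0 members were called by the same tools, against 0.461% of all genes by edgeR, and 4 had an unadjusted p under 0.05, against 11%. The Herpud1 difference of 0.44 had an edgeR adjusted p of 0.0669.

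Clock genes moved with dose as well. All 9 clock genes of one phase listed (such as Dbp, Per2 and Nr1d1) were called higher at 30 μg/kg and 4 of 5 of the opposite phase (such as Arntl) lower. A clock score, the difference of the mean log2 CPM of these lists, was -2.61 ± 0.13 (SD, n = 3) with vehicle and -0.80 ± 0.40 at 0.3 μg/kg. At the 4 highest doses, from 1 to 30 μg/kg, it was 1.54 ± 0.57, 1.87 ± 0.16, 1.89 ± 0.02 and 1.97 ± 0.37. Mean Herpud1 at the same doses was 100.6 ± 11, 126.9 ± 7.58, 134.1 ± 6.57 and 171.7 ± 13 CPM (SD, n = 3 each). At 1 μg/kg Herpud1 differed from vehicle by 0.14 on the log2 scale (SE 0.11). With the score as a covariate at 30 μg/kg, Herpud1 was at 0.46 (edgeR adjusted p = 0.153) and Hspa8 at 0.40 (edgeR adjusted p = 0.215), both no longer called. In that fit Hspa5 (0.89, edgeR adjusted p = 0.0339) and Hyou1 (0.90, edgeR adjusted p = 0.0416) were called higher. Hspb1 was called there with a log2 change of 4.83 (SE 1.3, edgeR adjusted p = 0.0499), against 2.49 without the covariate. The scores at 30 μg/kg and with vehicle did not overlap. Each group had its own mean in this fit, so that the effect of the score came from differences between mice within a group. These were widest at 0.01 μg/kg (SD 2.29), through 1 mouse, against SDs of 0.02 to 0.57 elsewhere. The changes in calls therefore lean on that mouse, and the part of the clock genes in these results was otherwise not tested. Replicate 3 at 0.01 μg/kg stood apart from its group, with a score of 1.46 where the others had -2.82 and -2.10. Its Herpud1 level, 109.1 CPM, was the highest below 1 μg/kg, and without it 10 members instead of 8 had an unadjusted p under 0.05 at that dose, against 10.1% of all genes.

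**Figure D5:**
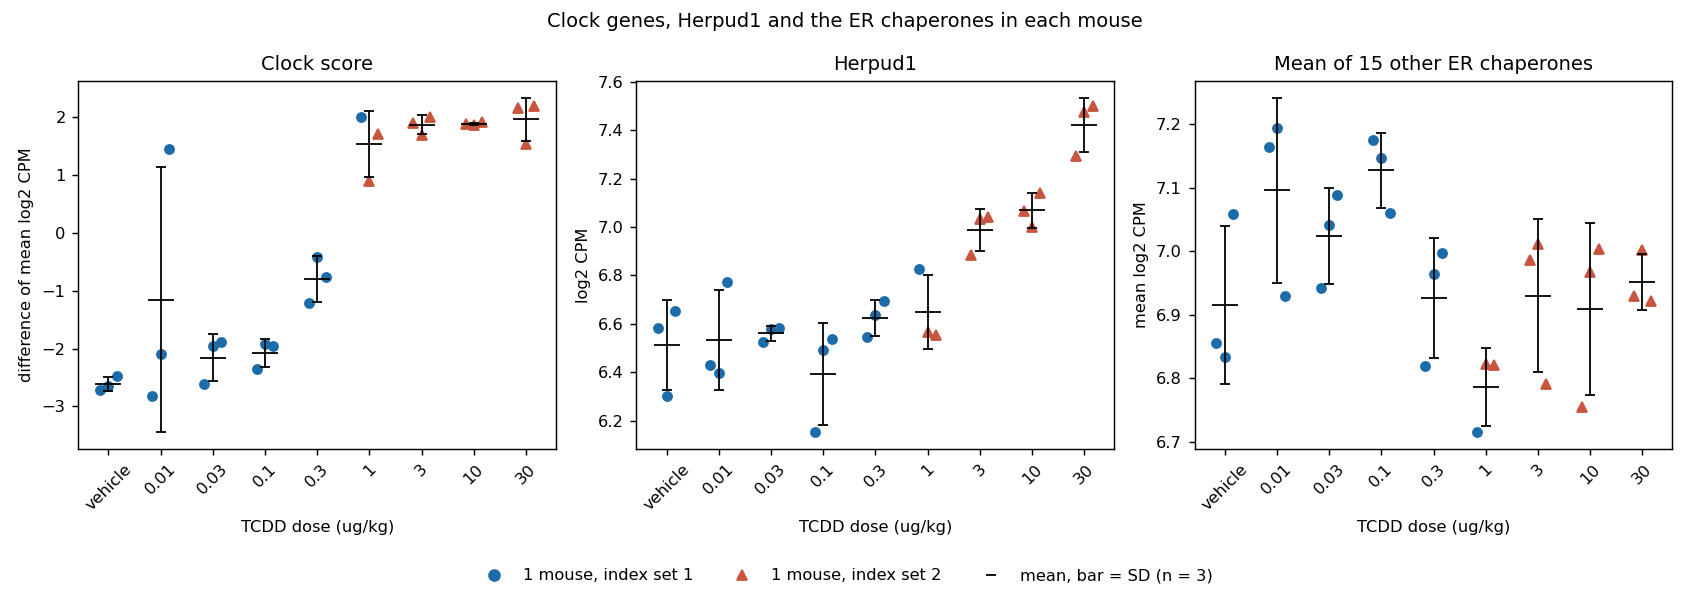
Clock score, Herpud1 (log2 CPM) and the mean log2 CPM of the 15 other ER chaperones in each mouse by dose, with the mean and SD of 3 mice and symbols for the index set. The clock score steps up between 0.3 and 1 μg/kg, Herpud1 rises from 3 μg/kg on, and the mean of the other ER chaperones at 30 μg/kg overlaps that of vehicle.

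Other genes of these pathways were compared at 30 μg/kg with vehicle in the same way, where 6.16% of all genes were called. Of 56 further UPR and ER quality control genes tested, 1 was called higher and 1 lower. Creb3l3, an ER-bound transcription factor, averaged 7.39 ± 0.73 CPM with vehicle and 25.2 ± 14.9 CPM at 30 μg/kg (SD, n = 3, log2 change 1.77, edgeR adjusted p = 0.00293). Ero1b, an ER oxidase, averaged 11.7 ± 4.88 and 6.49 ± 0.19 CPM (log2 change -0.84, edgeR adjusted p = 0.0179). Of 26 further integrated stress response genes 1 was called, the serine synthesis enzyme Psat1 (log2 change 0.69, edgeR adjusted p = 0.0467). Of 44 further heat shock and cytosolic chaperone genes 3 were called higher. Of all 44, 35 were above vehicle at 30 μg/kg, with a median log2 change of 0.18. At 0.1 μg/kg 36 of the 44 were above the same vehicle-treated mice, with a median of 0.18 and 0 called. At 0.01 μg/kg 36 were above them (median 0.09), and at 1 μg/kg 21 were (-0.004). The 3 genes called at 30 μg/kg included Fkbp5, a cochaperone of steroid receptors (log2 change 0.72, edgeR adjusted p = 0.0128). The others were Hspb8, a small heat shock protein (2.06, edgeR adjusted p = 0.0167), and Hspa2 (1.03, edgeR adjusted p = 0.0312). Hspb8 averaged 0.625 ± 0.46 CPM with vehicle and 2.69 ± 1.70 CPM at 30 μg/kg, and Fkbp5 187.3 ± 24.9 and 308.5 ± 70.7 CPM (SD, n = 3). All 6 smooth muscle markers were above vehicle in this comparison, with a median log2 change of 2.48 and 0 called by edgeR, and their part in the levels of this list was not tested. With the adjusted p alone 9 of the 44 were higher and 0 lower at 30 μg/kg, against 6% and 5.02% of all genes. The 9 included the chaperonin subunits Cct2, Cct5 and Cct6a and the mitochondrial HSP70 Hspa9, which were named after their values were seen. All 4 had log2 changes between 0.24 and 0.29.

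Some members varied more between mice of a group than most genes of like level, among heat shock genes and ER chaperones alike. The median residual SD was 0.138 log2 units over the members and 0.214 over all genes tested, which are not matched for level. Hsph1 had 0.333 and Hsp90aa1 0.258, more than 94.5% and 93.0% of the 1000 genes nearest in level. Ppp1r15a (0.380) and Asns (0.267) exceeded 93.9% and 89.2% of such genes. Among the ER chaperones Pdia6 and Hyou1 exceeded 83.7% and 82.1%, and Dnajb11 18.6%. Of the other heat shock genes Hspa8 exceeded 52% and Dnajb1 36.7%. Atf6 was among the steadiest, at 0.076, more than 9.70% of its neighbours. After group means were removed, the 120 pairs of ER chaperones had a median correlation across 27 mice of 0.46, ranging from -0.54 to 0.87, and the 36 pairs of cytosolic heat shock genes one of 0.10. The 144 pairs of an ER chaperone with a cytosolic heat shock gene also had a median of 0.10, with 11 over 0.5. The highest values joined ER and cytosolic HSP90, Hsp90b1 with Hsp90aa1 (r = 0.90), the HSP40 Dnajc3 with Hsph1 (r = 0.88), and BiP with Hyou1 (r = 0.87). These correlations describe genes measured in the same libraries, which share depth and tissue composition.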

How the data were processed

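RNA was measured by RNA-Seq in colonic epithelium scrapings of 27 mice. The deposited values are raw gene counts that the authors made with HTSeq 0.6.1 from reads trimmed with Trimmomatic 0.33 and aligned with TopHat2 2.1.0 to GRCm38, after quality checks with FastQC 0.11.3, per the submitters' processing notes. The strand setting and annotation release are not given in the sources used here, so overlapping and antisense genes are uncertain. Of all counted reads, 29.1 to 33.3% fell on no gene, 30.7 to 37.1% had more than 1 alignment and 0.392 to 0.607% were ambiguous, and none of these entered library sizes. Replicates of a group differed by more than sampling noise in all 27 pairs (lowest chi-square per degree of freedom 5.45).

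Genes were filtered with filterByExpr (minimum count 10), scaled by TMM (factors 0.957 to 1.046) and tested in R 4.3.3 with edgeR 4.0.16, by quasi-likelihood over all 9 groups, with Benjamini-Hochberg adjustment over all genes tested. Calls needed a fold of at least 1.5 as well as an adjusted p under 0.05. All tests were two-sided and all 95% intervals used 1.96 SE. Scripts were tested on simulated data. Alternatives were RLE size factors, no filter, DESeq2 1.42.0, limma 3.58.1 (voom, posterior probability of 0.8), covariates, subsets of mice and leaving out each mouse. The adjusted p alone within index set 2 and for 30 against 3 μg/kg, and 0.01 μg/kg without replicate 3, were chosen after seeing the data.

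Values per mouse were given for called members, for members with the smallest p for the slope until 8 were reached, and for the most abundant member of each role, and other members singled out were chosen after their values were seen. Of wider lists, called genes with a mean of at least 1 CPM were named, at most 5 per list. The members and all lists were chosen with earlier results of these data known.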

Additional observations from a re-analysis of the deposited data

How the results depend on the processing

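The count of members called at 30 μg/kg was 3, and 2 to 4 under the alternatives run, but the genes differed. With the clock score Herpud1 and Hspa8 were lost and Hspa5 and Hyou1 gained. With a term for index set Hspa8 and Hspb1 were lost and Hspa1b gained. Without replicate 1 at 30 μg/kg Hspa8 was lost and Hspa1a gained. In this comparison the term for index set rests on the mice at 1 μg/kg alone, and the clock score varied most within the 0.01 μg/kg group. Fits without 1 mouse called 2 to 3. At 3 μg/kg it went from 0 to 1 when only the groups compared were fitted, and to 2 with the adjusted p alone. At 10 μg/kg it went from 0 to 2 with the adjusted p alone, and ran from 0 to 1 without 1 mouse (Herpud1, without vehicle replicate 1 or 3). Within index set 2 it went from 0 to 1 with the adjusted p alone. For the slope over dose rank it went from 10 to 0 with a term for index set, 0 in index set 1 alone, 2 in index set 2 alone and 0 from vehicle to 3 μg/kg (21 mice), where the calls over all genes also went from 3865 to 11, 1, 494 and 412. By limma voom (log2 change 2.29) Hspb1 was not called at 30 μg/kg. With only the groups compared Hspb1 did not pass the filter on low counts and was not tested. The causes of these changes were not tested. No call reversed its direction. With 3 mice per group, the 95% intervals of Hspa5, Sdf2l1, Hspa1a, Hspa1b, Hsph1, Hsp90aa1, Asns and Ppp1r15a at 30 μg/kg reach past 1.5-fold, and a change of that size is not excluded for them. No paired analysis was possible because no number is shared between mice in the labels, and replicates were numbered in accession order.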
